A study of Mus musculus with 8 samples.

Results

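A set of 23 transcripts gave a clear array signal in the brainstem of C57BL/6 mice and none that rose well above background in DBA/1 mice. They were selected on these values themselves. A transcript was taken when its probe was well above background on all 4 C57BL/6 arrays and on no DBA/1 array, according to the scanner's own flag, and when its C57BL/6 mean in the authors' table of normalized values was 6 or more on the log2 scale. The table holds 60804 probes, of which 422 had this pattern of detection at any level and 30 had it at a mean of 6 or more. Of these 30, 7 were among 10 probes set aside by name, which left 23. The strain difference of the 23 is therefore a description of how they were found, and no test is offered for it. Names came from the study's lists of RNAs that differed between the strains and cover 19 of the 23, namely 6 mRNAs and 13 long noncoding RNAs (lncRNAs), on 13 chromosomes.

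The mice were 5-week-old males of the inbred strains DBA/1 and C57BL/6, with 4 mice of each strain and 1 mouse per array. No treatment is described other than the isoflurane anesthesia under which mice of both strains were decapitated. RNA came from the whole brainstem, so a lower signal from fewer cells of a type and a lower signal from less RNA per cell cannot be told apart. DBA/1 mice are used as a model because sound can evoke generalized seizures and respiratory arrest in them far more readily than in C57BL/6 mice, but the mice on the arrays had not been tested for either. The 4 C57BL/6 arrays lay in slide row 1 and the 4 DBA/1 arrays in slide row 2, so that strain and slide row cannot be told apart. These positions alone do not show whether all arrays shared a slide.

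Long noncoding RNAs are long transcripts without an evident protein product. They are commonly sorted by their place beside protein-coding genes. Intergenic lncRNAs lie apart from such genes, antisense lncRNAs run across a gene or its intron on the opposite strand, and bidirectional lncRNAs start next to the start of a gene and run away from it. Each array value is the hybridization of labelled RNA to a single DNA stretch of 60 bases, so it speaks for the transcripts that hold this stretch and not for every isoform of a gene. Whether the stretch is the same in both strains was not checked, so a lower signal cannot be assigned to the amount of RNA alone. The folds below are folds of signal.

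The probes of the 10 intergenic, intronic antisense and bidirectional lncRNAs are shown because they define what was and was not detected. They are written 5′ to 3′ as given in the study's lists, and capitals mark the letters AATAAA, the common signal for cleavage and polyadenylation, which were searched on the strand shown.
AK043180: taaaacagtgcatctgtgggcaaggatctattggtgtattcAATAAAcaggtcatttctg
AK053631: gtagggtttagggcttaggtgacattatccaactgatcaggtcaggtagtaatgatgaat
AK136314: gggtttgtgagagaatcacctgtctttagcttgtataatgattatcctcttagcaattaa
XLOC_018501: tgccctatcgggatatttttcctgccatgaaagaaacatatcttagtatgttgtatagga
XLOC_012871: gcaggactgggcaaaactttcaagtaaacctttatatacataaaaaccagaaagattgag
Gm13301: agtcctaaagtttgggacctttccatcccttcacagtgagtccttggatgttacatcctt
Gm7707: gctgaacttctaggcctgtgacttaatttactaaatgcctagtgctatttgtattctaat
A730017L22Rik: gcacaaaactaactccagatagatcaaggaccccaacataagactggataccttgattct
AK013680: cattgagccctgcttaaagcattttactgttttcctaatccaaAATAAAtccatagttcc
A230056P14Rik: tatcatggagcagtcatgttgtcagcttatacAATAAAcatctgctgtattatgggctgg

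AATAAA occurred in the probes of AK043180, AK013680 and A230056P14Rik here and in that of the mRNA Trappc12, so in 4 of the 19 named transcripts (21.1%). Among the other 843 listed probes that were lower in DBA/1 mice, 150 held it (17.8%). The GC content of the 19 probes lay between 35% and 45% with a median of 35%, against a median of 38.3% and a range of 15% to 75% in the 843. None of the 19 had an entry for cross-hybridization in the study's lists, where 95 of the 843 did (11.3%). LncRNAs made up 13 of the 19 (68.4%) and 549 of the 843 (65.1%), and 6 of the 13 lncRNAs (46.2%) were intergenic, against 253 of the 549 (46.1%). In RNA class and in the motif the named transcripts were thus close to the other listed probes. The annotated RNAs were 468 to 7538 bases long with a median of 2662, against a median of 1756 in the 843.

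In the 4 C57BL/6 mice, 33045 to 36162 probes of the table were well above background, against 29301 to 33350 in the 4 DBA/1 mice. The 75th percentile of the intensity before normalization was 67.6 to 109 in C57BL/6 mice and 47.1 to 75.03 in DBA/1 mice. Both ranges lay higher in C57BL/6 mice but overlapped, since DBA/1 replicate 4 had a higher 75th percentile than C57BL/6 replicate 2 and more detected probes than C57BL/6 replicates 1 and 2. The part of this in the selection of transcripts was not tested. After quantile normalization, 14 of 15 control genes spotted repeatedly on the array, such as Actb and Gapdh, were well above background on all 8 arrays, and their differences, DBA/1 minus C57BL/6, lay between -0.28 and 0.51 on the log2 scale. Of the brainstem marker genes looked for, Tph2, which makes serotonin in raphe neurons, had a named mRNA probe. Its log2 mean was 9.76 ± 0.65 (SD, n = 4) in C57BL/6 and 11.39 ± 0.21 (SD, n = 4) in DBA/1 mice. Only RNAs listed as differing between the strains could be named. A marker that did not differ could thus not be found, and Tph2 is no neutral check of the tissue.

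Before any normalization, the intensities of the 23 transcripts ran from 49.7 to 442 in C57BL/6 mice, with a median of 122. In DBA/1 mice they ran from 1.67 to 13.7, with a median of 3.00. The medians of the 23 on single arrays were 97.3 to 157 in C57BL/6 and 2.04 to 3.65 in DBA/1 mice. The scanner's flags that selected the 23 rest on these same arrays before scaling, so nothing is read from this separation. The negative control spots, which match no mouse sequence, had a 99th percentile of 2.19 to 2.44 in C57BL/6 mice and of 2.09 to 3.23 in DBA/1 mice. Of the 92 DBA/1 values, 46 exceeded that percentile of their own array, although none was well above background by the scanner's flag. The count was 13, 15, 6 and 12 of 23 in DBA/1 replicates 1 to 4. Not well above background is thus a bound on the signal, and it does not show that the RNA was missing.

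**Figure D1:**
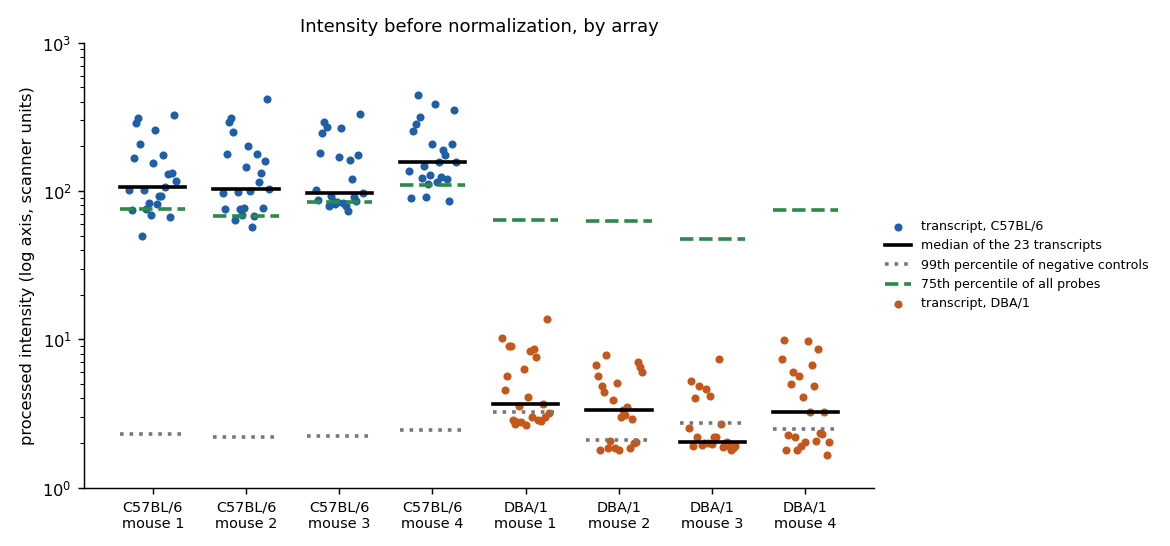
Processed intensity before normalization (log axis, scanner units) of the 23 transcripts on each of the 8 arrays, with 1 point per transcript, the median of the 23 as a black line, the 75th percentile of all probes as a dashed line and the 99th percentile of the negative controls as a dotted line. The C57BL/6 points lie between 49.7 and 442 and the DBA/1 points between 1.67 and 13.7, near the negative controls.

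For the values that follow, intensities under 5 were set to 5, which is 2.32 on the log2 scale, and the arrays were quantile-normalized. Of the 92 DBA/1 values of the 23 transcripts, 66 lay at this floor, and 6 transcripts lay there in all 4 DBA/1 mice. In C57BL/6 mice the means ran from 6.01 to 8.25 with a median SD of 0.19, and 8795 tested probes in the same range of means and well above background on all C57BL/6 arrays had a median SD of 0.22. The C57BL/6 mice thus varied about as much in these transcripts as in others of that level. By limma, 33179 probes were tested across the table and 2.94% were called lower in DBA/1 mice, at a fold change of 2 or more and an adjusted p under 0.05. The 23 transcripts are among these, but they were selected on the same contrast, so nothing is read from their count.

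The median difference of the 23, DBA/1 minus C57BL/6, was -4.22 on the log2 scale, against -0.01 for all tested probes. This median was -1.39 with normexp, a background correction that adds 50 to each intensity, and -5.09 without a floor. A fold is therefore given only as a bound. Every DBA/1 value below its array's limit was first raised to that limit, the signal of the brightest probe that was not well above background there, and the C57BL/6 mean was then set against the DBA/1 mean. The limit was 3.62 to 4.42 on the 4 DBA/1 arrays. On this basis the signals of the 23 were at least 4.34-fold to 20.4-fold lower in DBA/1 mice, with a median of 6.74-fold. These bounds, here and below, hold only for the floored and quantile-normalized values. With normexp the differences of the 19 named transcripts were smaller, at -2.36 to -1.01 on the log2 scale. Bounds of different probes have no order among themselves.

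**Figure D2:**
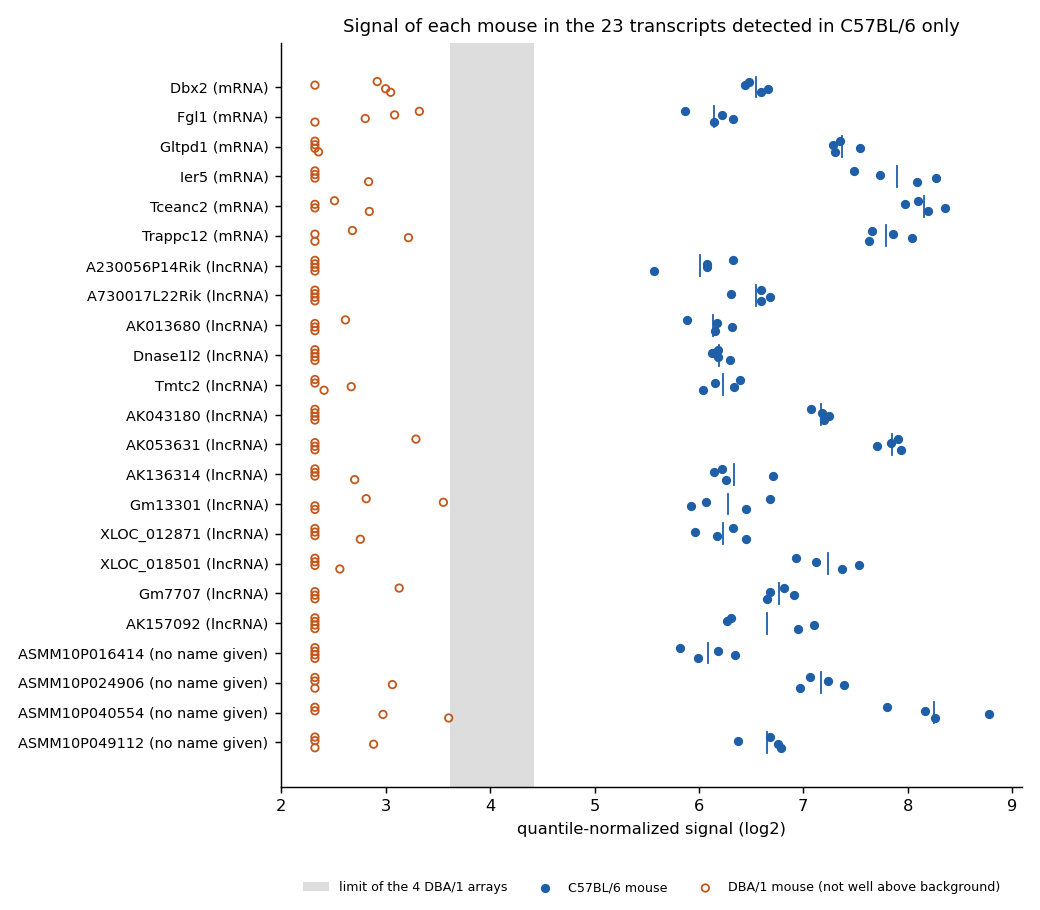
Quantile-normalized signal (log2) of the 23 transcripts in each mouse, with filled points for the 4 C57BL/6 mice, a bar at their mean, open points for the 4 DBA/1 mice and a grey band over the limits of the 4 DBA/1 arrays. The lowest C57BL/6 value of every transcript lies at least 2.37 above its highest DBA/1 value, a gap that follows from the selection. Of the 92 open points, 66 lie at the floor of 2.32.

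The 6 mRNAs were Tceanc2, Ier5, Trappc12, Gltpd1, Dbx2 and Fgl1, and all 6 accessions were matched to the RefSeq gene table of GRCm38.p6. Tceanc2, named for a domain of transcription elongation factors, lies on chromosome 4 from 107134162 to 107178366. Its log2 signals were 8.20, 8.36, 7.98 and 8.10 in the C57BL/6 mice and 2.84, 2.32, 2.32 and 2.51 in the DBA/1 mice. Set against the limit, the DBA/1 mean was lower by at least 19.2-fold, and 2 of its 4 DBA/1 values lay at the floor.

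Ier5, an immediate early gene whose product takes part in the response to growth signals and stress, lies on chromosome 1 from 155096367 to 155099636. Its log2 signals were 8.09, 8.27, 7.73 and 7.49 in C57BL/6 and 2.84, 2.32, 2.32 and 2.32 in DBA/1 mice, at least 15.98-fold lower in the latter. The C57BL/6 SD of 0.35 was the highest among the 6 mRNAs. Trappc12, a subunit of the TRAPP complexes that tether vesicles between the endoplasmic reticulum and the Golgi, had signals of 7.63, 8.04, 7.86 and 7.66 against 2.32, 3.22, 2.32 and 2.68, at least 14.9-fold lower in DBA/1 mice. The transcript it was probed on runs from 28709507 to 28750453 on the minus strand of chromosome 12 and ends 18.9 kb before the end of the RefSeq gene, so it is a short form of it. Gltpd1, now named Cptp, carries ceramide-1-phosphate between membranes. Its signals were 7.31, 7.55, 7.28 and 7.35 against 2.36, 2.32, 2.32 and 2.32, at least 11.1-fold lower in DBA/1 mice. Gltpd1 lies on chromosome 4 from 155864723 to 155869440, on the same chromosome as Tceanc2 but outside its neighbourhood.

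Dbx2, a homeobox factor that patterns interneuron progenitors in the developing spinal cord and hindbrain, lies on chromosome 15 from 95623563 to 95654771. It had log2 signals of 6.60, 6.66, 6.44 and 6.48 in C57BL/6 mice and of 3.05, 3.00, 2.32 and 2.92 in DBA/1 mice, at least 6.27-fold lower. Fgl1, a secreted protein related to fibrinogen that is made chiefly by the liver, was probed on a transcript from 41191434 to 41215156 on chromosome 8. Its RefSeq gene extends to 41217978. Its signals were 6.14, 6.33, 6.22 and 5.87 against 2.32, 2.80, 3.08 and 3.32, at least 4.74-fold lower in DBA/1 mice. Dbx2 and Fgl1 were the mRNAs with a single DBA/1 value at the floor, and the other 3 values of each remained below the limit of their arrays. In each of the 6 mRNAs the strains did not overlap, which follows from how they were selected.

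Among the 6 intergenic lncRNAs, AK053631 and AK043180 lie on chromosome 16. AK053631 runs from 72412745 to 72415443 on the plus strand and had log2 signals of 7.94, 7.71, 7.84 and 7.91 in C57BL/6 mice and of 2.32, 2.32, 2.32 and 3.29 in DBA/1 mice, at least 15.5-fold lower. AK043180, from 91222100 to 91222926 on the minus strand, had 7.20, 7.24, 7.18 and 7.07, while each DBA/1 mouse was at the floor of 2.32, at least 9.69-fold lower. Its SD among the C57BL/6 mice was 0.07, as was that of the Dnase1l2 transcript, the lowest of the 23.

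XLOC_018501 and AK136314 were the only 2 of the named transcripts that lay within 300 kb of each other, and this count of 1 pair was the same within 100 kb and within 1 Mb. Both run on the plus strand of chromosome 5, AK136314 from 104603943 to 104608229 and XLOC_018501 from 104636254 to 104645041, with 28.0 kb between them. The signals of XLOC_018501 were 7.37, 7.54, 7.13 and 6.93 in C57BL/6 mice and 2.56, 2.32, 2.32 and 2.32 in DBA/1 mice, at least 10.2-fold lower. Those of AK136314 were 6.26, 6.71, 6.15 and 6.22 against 2.70, 2.32, 2.32 and 2.32, at least 5.42-fold lower. Both were highest in C57BL/6 replicate 2, and the only DBA/1 value of either above the floor was that of DBA/1 replicate 1. Neither trait was particular to this pair. The median deviation of the 23 from their C57BL/6 means was also highest in C57BL/6 replicate 2, at 0.18, against 0.08 in probes of the same level. Ier5, Gltpd1 and XLOC_012871 likewise had only DBA/1 replicate 1 above the floor. XLOC_012871, a lncRNA on chromosome 2 from 53219582 to 53220427, had 6.46, 6.17, 5.96 and 6.33 against 2.76, 2.32, 2.32 and 2.32, at least 5.04-fold lower in DBA/1 mice.

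Gm13301 runs from 42216908 to 42235604 on chromosome 4. Its log2 signals were 6.45, 5.93, 6.07 and 6.68 in C57BL/6 and 2.32, 2.32, 3.55 and 2.81 in DBA/1 mice, at least 5.22-fold lower. Within 300 kb of it the study listed 8 other probes, of the lncRNAs Gm17167, Gm5859, DQ721078, Gm3892 (2 probes), DQ551946 and Gm13307 and the mRNA Gm13298, and all 8 were lower in DBA/1 mice, with differences of -1.44 for DQ721078 to -4.29 for Gm5859 on the log2 scale. No DBA/1 array was well above background for Gm17167, Gm13298 and Gm13307, which were at least 2.46-fold, 1.34-fold and 1.12-fold lower. Gm5859 was well above background in all 8 mice, at 10.70 ± 0.19 (SD, n = 4) in C57BL/6 and 6.41 ± 0.11 (SD, n = 4) in DBA/1 mice. Gm17167 overlaps Gm13301 on the same strand, and its signals were 5.15, 4.55, 5.21 and 5.87 against the floor in each DBA/1 mouse. Unlike the probe of Gm13301, 6 of these 8 carried an entry for cross-hybridization in the study's lists, so their values may be shared between transcripts. The longest run of bases that the Gm13301 probe shared with any of the 8 probes, on either strand, was 10, with a probe of Gm3892. This sets probe against probe, and whether the Gm13301 probe matches other parts of the neighbouring transcripts was not checked.

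The other 7 lncRNAs lay against protein-coding genes. Gm7707 is annotated as an intronic antisense lncRNA of Parg, which codes for the enzyme that removes poly(ADP-ribose) chains. It runs from 32266593 to 32267748 on chromosome 14, with log2 signals of 6.65, 6.91, 6.68 and 6.82 in C57BL/6 mice and of 2.32, 2.32, 2.32 and 3.13 in DBA/1 mice, at least 7.30-fold lower. AK157092, from 18585069 to 18588153 on the same chromosome, is a natural antisense lncRNA of Ube2e2, a ubiquitin-conjugating enzyme. It had 6.95, 7.10, 6.27 and 6.30 in the C57BL/6 mice, while every DBA/1 value was at the floor, at least 6.78-fold lower. The C57BL/6 values of AK157092 had an SD of 0.43, the highest of the 23, with C57BL/6 replicates 1 and 2 above replicates 3 and 4.

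The 3 bidirectional lncRNAs were A730017L22Rik beside Atrn, which codes for attractin, a protein needed for the upkeep of myelin, AK013680 beside Etaa1, an activator of the ATR kinase at damaged replication forks, and A230056P14Rik beside Nipa2, a magnesium transporter. The start of each lncRNA and the start of its gene had at most 138 bases between them and lay on opposite strands. The bases between both starts are shown because they are all that separates the probed lncRNA transcript from the gene across it. Another annotated transcript of A730017L22Rik starts at 130906396, inside the stretch shown for it. They were read from RefSeq promoter sequence of GRCm38.p6 on the plus strand, with CG pairs in capitals, for chr2:130906357-130906494, chr11:17953876-17953969 and chr7:55962494-55962530 in this order.
A730017L22Rik and Atrn: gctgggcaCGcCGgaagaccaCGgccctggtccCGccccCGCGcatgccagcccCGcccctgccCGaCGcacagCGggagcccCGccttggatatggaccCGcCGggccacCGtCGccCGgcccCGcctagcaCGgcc
AK013680 and Etaa1: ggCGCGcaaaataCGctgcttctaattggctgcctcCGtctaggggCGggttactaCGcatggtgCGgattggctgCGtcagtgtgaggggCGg
A230056P14Rik and Nipa2: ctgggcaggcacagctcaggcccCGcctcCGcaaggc

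These stretches of 138, 94 and 37 bases held 18, 9 and 2 CG pairs, which is 13.04, 9.57 and 5.41 per 100 bases, and had a GC content of 79.7%, 61.7% and 75.7%. Over the 250 bases before the start in all 32851 RefSeq promoters, the medians were 2.40 CG pairs per 100 bases and a GC content of 52.4%. All 3 stretches lay above these medians. A730017L22Rik had log2 signals of 6.59, 6.68, 6.31 and 6.60 in C57BL/6 mice, and all of its DBA/1 values were at the floor, at least 6.27-fold lower. AK013680 had 6.16, 6.32, 6.18 and 5.89 against 2.32, 2.32, 2.32 and 2.61, at least 4.72-fold lower in DBA/1 mice. A230056P14Rik had 5.57, 6.08, 6.08 and 6.32 against the floor in every DBA/1 mouse, at least 4.34-fold lower. The 3 lncRNAs were each separated between the strains, which follows from their selection. No probe of Atrn, Etaa1 or Nipa2 was among those with a name here, so the genes across these starts were not analysed here.

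A730017L22Rik was the 1 transcript of the 19 with a second named probe, on another of its transcripts. That probe was also well above background on all 4 C57BL/6 and no DBA/1 array, but at 4.57, 4.33, 4.84 and 3.93 against 3.44, 2.93, 2.32 and 2.81, at least 1.43-fold lower in DBA/1 mice. The strains did not overlap in this probe, which lay under the level of 6 that the selection asked for.

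The remaining 2 lncRNAs overlap exons of a protein-coding gene on its own strand. The Tmtc2 transcript runs from 105269887 to 105574451 on chromosome 10, and its gene codes for a membrane protein of the endoplasmic reticulum. It had log2 signals of 6.04, 6.34, 6.15 and 6.39 in C57BL/6 mice and of 2.41, 2.67, 2.32 and 2.32 in DBA/1 mice, at least 5.04-fold lower. This transcript ends 82.2 kb before the RefSeq gene does. The Dnase1l2 transcript, of a gene for a deoxyribonuclease, runs from 24440081 to 24442200 on chromosome 17 and had 6.29, 6.18, 6.13 and 6.18 against the floor in every DBA/1 mouse, at least 4.92-fold lower. Both are listed as lncRNAs. Whether their probes lie in exons shared with the Tmtc2 and Dnase1l2 mRNAs was not checked. Their values therefore cannot be assigned to the lncRNA or to the mRNA alone.

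Around the 19 named transcripts, 26 other named probes lay within 300 kb of 11 of them. In DBA/1 mice 22 of the 26 were lower (84.6%) and 4 were higher, and 20 of the 22 and all 4 of the others passed the adjusted criterion by limma. Of the 1183 listed probes used here, all of which were tested, 862 were lower (72.9%). Without the 8 probes near Gm13301, 14 of 18 were lower. The study listed these probes because they differed between the strains on these arrays, so the counts do not show how often a neighbour differs.

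**Figure D3:**
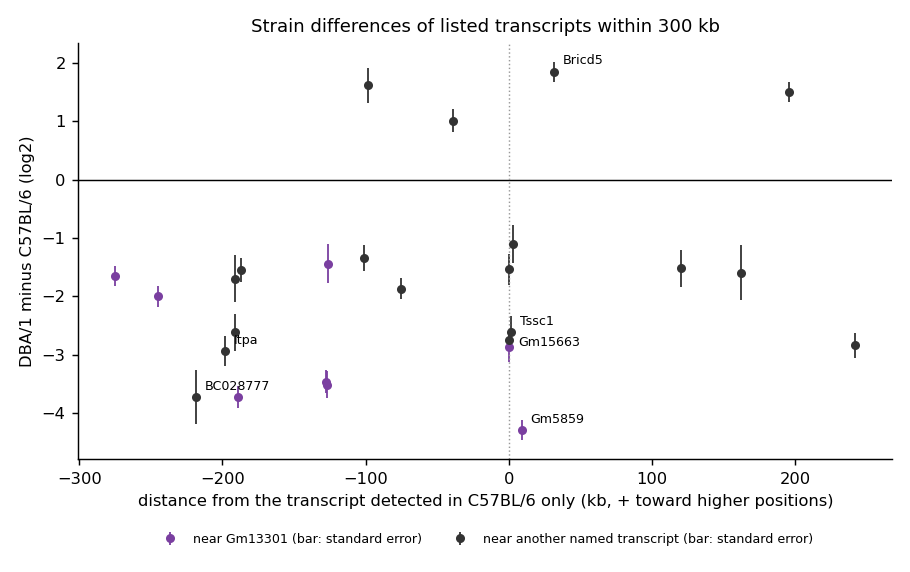
Difference between the strains (DBA/1 minus C57BL/6, log2, with the standard error by limma) of the 26 other listed probes within 300 kb of a named transcript, against the distance in kb between the annotated transcripts, counted from the nearest named transcript. The 8 probes near Gm13301 lie between -1.44 and -4.29, and 4 of the other 18 lie above 0.

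Some neighbours start close to a named transcript and run the other way. Gm15663, a lncRNA that starts 0.10 kb from the Tmtc2 transcript on the opposite strand, was well above background in all 8 mice, with log2 signals of 9.06, 9.05, 8.84 and 8.78 in C57BL/6 and 6.39, 6.41, 5.99 and 5.93 in DBA/1 mice. It fell by 2.75 on the log2 scale (standard error 0.18, limma adjusted p = 1.7e-06). Tssc1, whose protein takes part in endosome traffic, starts 1.38 kb from the Trappc12 transcript on the opposite strand. It had 7.48, 7.44, 7.32 and 6.54 against 5.25, 4.59, 4.38 and 4.09, a difference of -2.62 (standard error 0.28, limma adjusted p = 9.3e-05). Both neighbours were measured in both strains and their strains did not overlap. Gm16348, which starts 2.98 kb from the Fgl1 transcript, differed by -1.10, and its limma adjusted p was 0.087, which did not pass. AK086706, 162 kb from Fgl1, differed by -1.60 and did not pass either (limma adjusted p = 0.084).

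Others lay farther off. Itpa, an enzyme that clears inosine triphosphate, lies 198 kb from A730017L22Rik and had log2 signals of 11.86, 12.16, 11.92 and 11.78 in C57BL/6 mice and of 9.26, 9.10, 8.19 and 9.44 in DBA/1 mice. It fell by 2.94 on the log2 scale (limma adjusted p = 1.6e-05). BC028777, 219 kb from Dnase1l2, differed by -3.73 (limma adjusted p = 3.4e-04), with 1 of the 4 DBA/1 values at the floor. The 2 lncRNA probes of Paxbp1 and AK038602 near AK043180 differed by -1.55, -2.61 and -2.84, each with only 2 of the 4 DBA/1 arrays well above background. AK084368 near AK053631 differed by -1.70, with 3 of the 4 DBA/1 arrays well above background. For 2610204G22Rik and the glycosyltransferase gene B3galt6 near Gltpd1 the differences were -1.34 and -1.52, both with a single DBA/1 array well above background. Gm14057 near A730017L22Rik was at the floor in each DBA/1 mouse, at least 1.23-fold lower. The 4 neighbours that were higher in DBA/1 mice were Bricd5, at 1.85 and 31.7 kb from Dnase1l2, Pkd2, the calcium channel subunit polycystin-2, at 1.61 and 98.1 kb from AK136314, AK046212, at 1.50 and 196 kb from AK053631, and AK021082, at 1.01 and 38.7 kb from A730017L22Rik. Of these 4, Bricd5, AK046212 and AK021082 were well above background on all 8 arrays, and Pkd2 on all 4 DBA/1 arrays and on 1 of the 4 C57BL/6 arrays, so that its difference rests on C57BL/6 values that were mostly not well above background. The Dnase1l2 transcript and Bricd5 thus differed in opposite directions within 31.7 kb.

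The 4 transcripts whose names were not given in the sources used here had C57BL/6 means of 6.08 to 8.25 on the log2 scale and were at least 4.55-fold to 20.4-fold lower in DBA/1 mice. One of them, probe ASMM10P040554, had signals of 8.26, 8.78, 8.16 and 7.80 in C57BL/6 and 3.60, 2.97, 2.32 and 2.32 in DBA/1 mice. Another, ASMM10P024906, had 6.97, 7.39, 7.24 and 7.07 against 2.32, 3.06, 2.32 and 2.32. Both were separated between the strains, as were the other 2, and this too follows from their selection.

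The level of 6 divides a continuous range. The transcripts just inside it were A230056P14Rik at a C57BL/6 mean of 6.00 in the authors' table, ASMM10P016414 at 6.07 and AK013680 at 6.12. Those just outside were AK020757 at 5.89, XLOC_006188 at 5.89 and Nrg4 at 5.74. Under the level lay 392 of the 422 probes detected in C57BL/6 only, with a median of 3.93. With the strains swapped, 42 probes were detected in DBA/1 only, and 4 of them had a DBA/1 mean of 6 or more. The C57BL/6 side thus held more probes both under and over the level of 6. The match of the probes to the sequence of each strain was not checked, so these counts describe signals and not amounts of RNA.

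**Figure D4:**
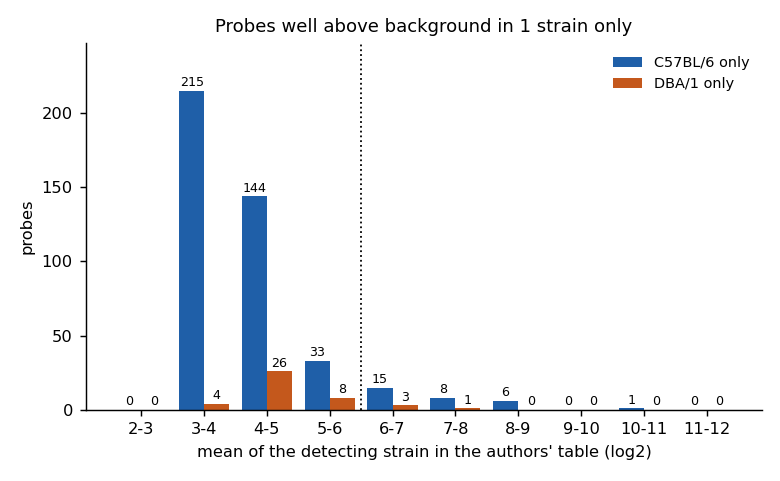
Number of probes well above background on all 4 arrays of 1 strain and on no array of the other, by the mean of the detecting strain in the authors' table (log2, in steps of 1), with the probes that were set aside by name included and a dotted line at the level of 6. The bars reach 215 for C57BL/6 and 26 for DBA/1, and right of the line they add up to 30 and 4.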

How the data were processed

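The arrays were one-color Agilent arrays with the brainstem RNA of 1 mouse each. The deposited scanner files hold the intensity of each spot, which Feature Extraction 11.0.1.1 per the labels had background-subtracted and which is not normalized between arrays, and flags of well above background, outlier and saturation, which the authors deposited as other values. The authors' table holds log2 values that they normalized by quantiles. Here the mean of each probe's spots was taken without outlier and control spots, raised to 5 where lower, put on the log2 scale and quantile-normalized. A probe was well above background on an array when any of its spots was. A probe entered the comparison if 4 or more of the 8 arrays had it well above background and both strains had values, and was fitted with limma 3.58.1 in R 4.3.3 (lmFit, then eBayes), with the Benjamini-Hochberg adjustment. Tables and figures were made with Python 3.11.15, pandas 2.3.3, numpy 2.4.6 and matplotlib 3.10.9. On simulated data, 191 of 200 changed probes among 31872 were recovered and 10 unchanged ones were called.

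Names, positions and probe sequences came from Additional files 1 and 2, of which only probes present in the copy used here could be named, and none of their values were used. The RefSeq table of GRCm38.p6 held the accession of 424 of 433 listed mRNA probes, and 415 lay inside their gene within 100 bases, so positions are given as GRCm38 and counted from 1. All named mRNAs and lncRNAs of the set are described, as are the other listed probes within 300 kb of them. The set, the lists and the tests were chosen with earlier results of these data known. For the bounds, the lowest value of a probe well above background was of no use as a limit, being the floor itself, and the limit used instead was chosen with the values in view. Spread between 4 mice limits the precision. Probe positions were not used here.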

Additional observations from a re-analysis of the deposited data

How the results depend on the processing

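The number of transcripts, 23, was the same when every spot of a probe had to be well above background and with levels quantile-normalized here, and was 22 with levels scaled to the 75th percentile. It was 36 with at least 3 C57BL/6 and at most 1 DBA/1 array, 55 at a C57BL/6 mean of 5 or more and 9 at 7 or more, and 21 to 28 when single mice were left out. The median difference of the 23 was -4.03 with scaling to the 75th percentile, -5.09 without a floor and -1.39 with normexp, and -4.28 to -4.17 with each mouse left out. Over the table, 1270 probes met the adjusted criterion, against 310 with normexp, 888 with an unpaired test without moderation, 922 without a filter on dim probes and 1111 to 1397 with each mouse left out. The direction of the 23 was fixed by their selection, so alternatives say nothing of its stability. Their bounds had a median of 6.74-fold over the 23, against 18.7-fold with the limit set by the lowest value of a probe well above background. Replicate numbers follow the order of the samples within each strain and are not the mouse numbers in the labels. The deviations of same-numbered arrays correlated at 0.38, 0.02, 0.13 and 0.35, so not every pair exceeded 0.1 and the numbers were not taken as pairs. As a hint from the data, 6 of the 8 arrays correlated best with the array of their own number in the other strain, and the number is also the slide column in both strains. With the replicate number, and so the slide column, as a block, 1325 probes met the criterion. Signal over background limits each value in DBA/1 mice to a bound.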
